A study of Mus musculus with 230 samples.

Results

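Galanin (Gal), neuropeptide Y (Npy), neurotensin (Nts), vasoactive intestinal peptide (Vip) and urocortin (Ucn) were followed in mouse dorsal root ganglion (DRG) sensory neurons after sciatic nerve injury. These 5 genes were taken by name from the 53278 genes of the count table, as peptides known from injured sensory neurons. In libraries made from pools of neurons, Gal, Npy, Nts and Ucn were higher in injured than in intact neurons, while Vip was close to absent from both. In single injured neurons of 1-month mice the same 4 genes were often held together by 1 cell, and those cells came from the L4 ganglion.

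All mice were C57BL/6 X CAST/Ei crosses. Neurons were picked by hand after enzymatic dissociation of the L4 and L5 ganglia, so every group passed through the same dissociation. There were 18 low-input libraries, with 3 libraries each of injured and intact neurons at 1 month, 8 months and 12 months of age (the 12-month group is labelled 1y in part). There were also 69 single neurons, whose cytoplasm was sequenced by SMART-seq2, a full-length RNA method, and whose nucleus went to bisulfite sequencing. The cells were 21 injured and 18 intact at 1 month and 22 injured and 8 intact at 1 year. For the intact cells L4L10M and L5L22m, labelled 1 month here, the bisulfite samples of the same name are labelled with a higher age. The labels give no time after the injury, no animal for any library or cell, and no number of neurons for a low-input library. Nothing in them says that the 3 libraries of a group came from different mice, so p-values measure the spread between these libraries, which may be technical. Names of injured samples carry an R and names of intact samples an L, and the labels do not say whether intact ganglia came from injured mice. The cell groups name no animal, so each counts as 1 sample and no test was made between them.

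Neuropeptides are cut from larger precursors by prohormone convertases, stored in dense-core granules and released to act on G protein-coupled receptors of neurons and other cells. Galanin, neuropeptide Y and vasoactive intestinal peptide are scarce in most uninjured sensory neurons and are textbook examples of peptides that such neurons make after their axon is cut. Neurotensin acts through the receptors Ntsr1 and Ntsr2 and binds sortilin (Sort1), and urocortin is a relative of corticotropin-releasing hormone that acts on Crhr1 and Crhr2. Transcription factors of the AP-1 and CREB/ATF families, among them Jun and the injury-induced Atf3, bind the palindromic sites known as AP-1 sites and cyclic AMP response elements (CRE).

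The 250 bases before each gene's start were searched for such sites, since 4 of the genes were higher in injured libraries. The sequences are RefSeq's for GRCm38.p6 and all 5 genes matched. The motifs were the AP-1 site TGANTCA, the CRE TGACGTCA, its shorter form TGACG and the STAT site TTCNNNGAA, on both strands, and a TATA box, TATAAA or TATATA, on the gene's strand. A full CRE also contains the shorter form on each strand. In the windows of Nts, Vip and Ucn at least 1 match was found, and these are printed 5′ to 3′ on the gene's strand with the matches in capitals. The Nts window lies at chr10:102490487-102490668 on the minus strand and stops where the count table's exon starts, the Vip window at chr10:5638968-5639217 on the plus strand, and the Ucn window at chr5:31138896-31139145 on the minus strand.
Nts: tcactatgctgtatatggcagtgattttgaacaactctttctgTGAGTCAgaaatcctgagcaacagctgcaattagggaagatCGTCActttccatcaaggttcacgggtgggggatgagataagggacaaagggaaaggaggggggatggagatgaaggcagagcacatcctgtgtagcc
Vip: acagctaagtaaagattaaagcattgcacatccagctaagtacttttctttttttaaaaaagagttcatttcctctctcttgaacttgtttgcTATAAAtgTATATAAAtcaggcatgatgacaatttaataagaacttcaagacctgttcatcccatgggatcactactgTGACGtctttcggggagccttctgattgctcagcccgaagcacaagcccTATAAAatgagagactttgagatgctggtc
Ucn: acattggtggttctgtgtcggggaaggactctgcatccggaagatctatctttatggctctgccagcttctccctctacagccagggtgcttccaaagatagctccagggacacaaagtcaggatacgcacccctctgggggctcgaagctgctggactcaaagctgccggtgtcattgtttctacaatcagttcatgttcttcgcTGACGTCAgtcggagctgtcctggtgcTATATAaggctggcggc

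The Nts window held an AP-1 match 207 bases before the RefSeq start and the shorter CRE form 166 bases before it, and TATATA matches 45 and 43 bases before it, which lie past the 182 bases printed. The Ucn window held a full CRE 44 bases before its start and a TATA match 17 bases before it. The Vip window held the shorter CRE form 79 bases and a TATAAA match 30 bases before its start. The windows of Gal (chr19:3414545-3414794, minus strand) and Npy (chr6:49822460-49822709, plus strand) held none of these letters. Over 32851 promoter windows of the same length, 6.75% held the AP-1 letters, 1.55% the full CRE, 17.8% the shorter form, 7.02% the STAT letters and 11.5% a TATA match. A match describes the letters only, and Vip shows that a window with the shorter CRE form can belong to a gene with almost no counts here.

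Low-input libraries held 7531967 to 19443627 counts outside spike-ins, and 1 feature, CT010467.1, took 29.4% to 93.8% of them, with a median of 39% in injured and 65.7% in intact libraries. Counts outside it were fewest, at 770328, in the replicate 2 library of intact 12-month neurons. Levels are given as CPM, a gene's counts relative to all counts of its library outside spike-ins, scaled by TMM, which aligns the bulk of genes between libraries. Changes are edgeR log2 changes with their standard error (SE). A change was called where the p adjusted by Benjamini-Hochberg over 14212 genes was below 0.05. In such pools, fewer cells of a type and less RNA per cell cannot be told apart.

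Gal encodes the precursor of galanin, a peptide that inhibits transmitter release through Galr1 and promotes axon growth through Galr2. At 1 month the intact libraries held 2.32, 10.7 and 0 CPM (replicates 1, 2 and 3) and the injured libraries 227, 211 and 112 CPM. At 8 months the intact libraries held 0.721, 1.08 and 0.575 CPM and the injured libraries 243.2, 245.2 and 242.2 CPM. At 12 months no intact library held a count and the injured libraries held 930.3, 530.1 and 355.6 CPM. Every injured library lay above every intact library, and the injured level was highest at 12 months, where the 3 libraries also differed most among themselves. Intact Gal was highest in the 1-month replicate 2 library, which alone gave 312 of the 343 intact 1-month counts.

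Npy encodes neuropeptide Y, an inhibitory peptide that acts on Npy1r and Npy2r. At 1 month the intact libraries held 2.02, 0.205 and 0 CPM and the injured libraries 489.9, 570.1 and 838.2 CPM. At 8 months they held 0.412, 0 and 1.23 CPM against 97.2, 526.2 and 388.3 CPM, and at 12 months 0.770, 3.61 and 0 CPM against 684.0, 802.6 and 691.9 CPM. The groups did not overlap at any age, and the lowest injured library was replicate 1 at 8 months. The 3.61 CPM of the 12-month intact replicate 2 library rest on 2 counts.

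Nts encodes the precursor of neurotensin and of the related neuromedin N. At 1 month the injured libraries held 174.4, 203.5 and 199.7 CPM and the intact libraries 0.30, 0 and 0 CPM. At 8 months the injured libraries held 51.5, 298.2 and 107.1 CPM and the intact libraries 0, 0.216 and 0.328 CPM. At 12 months the injured libraries held 295.8, 201.4 and 236.7 CPM and the intact libraries 0.514, 0 and 0 CPM. Nts was therefore at or near 0 in every intact library and at 51.5 CPM or more in every injured one. As for Npy, the lowest injured library was replicate 1 at 8 months, in which 59.7% of the counts fell on CT010467.1, against 45.4% and 41.6% in replicates 2 and 3.

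Ucn encodes urocortin. At 1 month the injured libraries held 31.3, 5.96 and 28.5 CPM and the intact libraries 0.225, 0.0342 and 0 CPM. At 8 months the injured libraries held 17.1, 41.9 and 35.7 CPM, and a single count was found in the 3 intact libraries (0.0821 CPM in replicate 3). At 12 months the injured libraries held 14.8, 13.5 and 18.7 CPM and the intact libraries no count. Ucn had the lowest injured levels of the 4 genes, and again no intact library reached an injured one.

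Vip encodes vasoactive intestinal peptide, which acts on Vipr1 and Vipr2. All 18 libraries together held 7 Vip counts, 2 in the 1-month injured replicate 1 library (0.121 CPM) and 5 in the 12-month intact replicate 1 library (0.428 CPM). Vip did not pass the filter on low counts and was not tested with the other genes. In these neurons it was thus not detectably induced, and its naming among injury-induced peptides goes against the data.

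**Figure D1:**
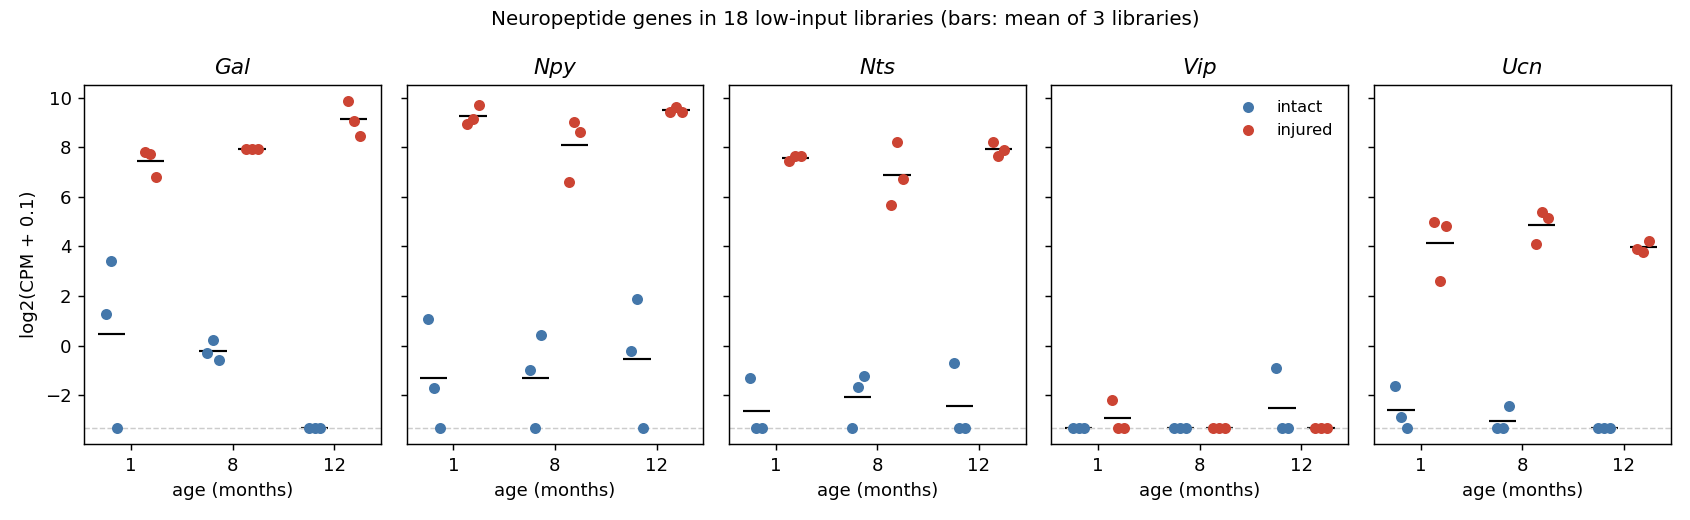
Level of the 5 genes in each of the 18 low-input libraries, as log2(CPM + 0.1), against age in months. Blue points are intact and red points injured libraries, bars are means of 3, and the dashed line marks 0 counts. Injured and intact libraries do not overlap for Gal, Npy, Nts and Ucn at any age, and Vip lies at the dashed line in all but 2 libraries.

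Per kilobase of exon, which allows levels of different genes to be compared, Npy was highest in injured libraries at 1 month (1118 ± 322 CPM per kb, SD, n = 3), followed by Gal (258 ± 87.1), Nts (154 ± 12.7) and Ucn (43.5 ± 27.6). The libraries of Gal and Nts overlapped at that age, and the other neighbours in this order did not. At 8 months the order of means was the same, with 596 ± 387 for Npy, 342 ± 2.16 for Gal, 122 ± 104 for Nts and 62.7 ± 25.6 CPM per kb for Ucn. There Npy overlapped with Gal, and Nts with Ucn. At 12 months the means were 1283 ± 117 for Npy, 850 ± 414 for Gal, 196 ± 38.2 for Nts and 31.1 ± 5.29 CPM per kb for Ucn, and only Npy and Gal overlapped.

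Averaged over the 3 ages, all 4 tested genes rose with injury. The log2 change was 10.10 ± 0.60 (SE) for Nts (edgeR, adjusted p = 3.516e-08), 9.87 ± 0.88 for Gal (2.8e-05), 9.69 ± 0.79 for Npy (3.182e-06) and 9.46 ± 0.65 for Ucn (5.559e-07). The averaged values of Gal and Ucn include the 12-month libraries, where intact neurons held no count, so they depend on edgeR's prior count and are no exact sizes. By p-value Nts ranked 2, Ucn 6, Npy 7 and Gal 15 among the 14212 genes. Of all genes tested, 5.11% were called higher and 1.07% lower in this comparison. The filter could be met by injured libraries alone, and a gene that met it only there had to differ, so the 4 of 4 describes these genes and is no support in itself. The 4 genes also had no overlap between injured and intact libraries within any age, as had 1.83% of all genes with injured libraries higher and 0.12% with injured libraries lower. With the share of CT010467.1 as a covariate, Gal lost the averaged call at a similar log2 change (9.13, adjusted p = 0.0538), and the other 3 kept it.

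At 1 month 3 of the 4 genes were called higher, where 0.232% of all genes were. Nts changed most (11.19 ± 1.06, edgeR adjusted p = 9.763e-05, the lowest p of all genes), ahead of Npy (9.85 ± 1.33, 0.00332) and Ucn (8.09 ± 0.90, 0.000683). Gal, with a log2 change of 5.37 ± 1.07, missed the threshold (adjusted p = 0.0689, unadjusted p = 2.0354e-04). Gal passed without the intact replicate 2 library (7.34, adjusted p = 0.0406) or without the intact replicate 3 library (4.80, 0.00876). It also passed in 5 of the 11 alternatives that leave out no single library. These were DESeq2 (adjusted p = 3.128e-06), limma-voom (0.0377), ERCC scaling (0.0314), no expression filter and a fit without robust shrinkage (0.0466). The Npy call was lost when only the 1-month libraries were fitted (0.0521) and under a replicate block (0.0585), and the Ucn call with limma-voom (0.0764).

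At 8 months all 4 genes were called higher, against 0.915% of all genes called higher and 0.0422% called lower. The log2 changes were 8.26 ± 1.26 for Gal (edgeR, adjusted p = 0.0096), 9.16 ± 1.31 for Npy (0.0038), 9.58 ± 0.99 for Nts (0.000139) and 9.58 ± 1.04 for Ucn (0.000363). For Ucn the ratio of summed CPM, which rests on the single intact count, was 1025 with a 95% counting interval of 183.6 to 40510. These calls depended on the model. With limma-voom 0 of the 4 were called (adjusted p = 0.0943 to 0.263), and with the CT010467.1 covariate Gal (log2 change 7.59, adjusted p = 0.107) and Npy (8.72, 0.0909) were not. With only the 8-month libraries, Npy (0.248) and Nts (0.123) were not called.

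At 12 months all 4 genes were called higher, against 2.19% of all genes called higher and 0.802% called lower. Npy changed by 10.06 ± 1.45 (edgeR, adjusted p = 0.00259) and Nts by 9.52 ± 1.05 (0.0003). Gal and Ucn had no intact counts, so their folds are lower bounds, computed as if the 3 intact libraries had together held 3 counts. Gal was at least 3453-fold higher (28745 against 0 counts, edgeR adjusted p = 0.00247) and Ucn at least 86.9-fold higher (723 against 0 counts, 0.00245). With the CT010467.1 covariate none of the 4 was called (adjusted p = 0.132 to 0.171), at log2 changes of 9.31 for Npy and 6.62 for Nts. Its share was 64.2%, 93.8% and 80.9% in the intact libraries of that age, and its part in the result was not tested beyond this fit. With limma-voom Npy and Nts were called, and Gal (0.0717) and Ucn (0.145) were not.

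**Figure D2:**
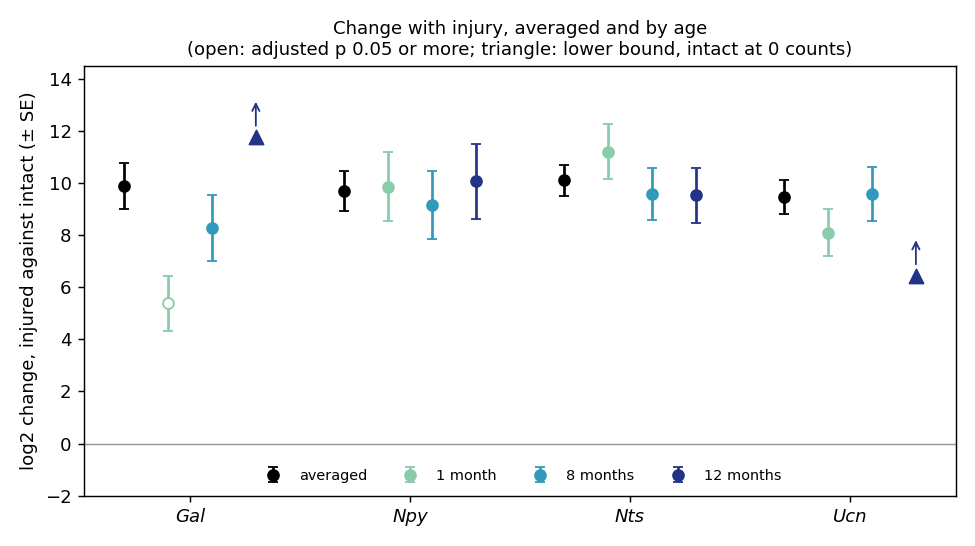
Log2 change of Gal, Npy, Nts and Ucn, injured minus intact, with its SE, averaged over ages and at 1, 8 and 12 months. The open circle is Gal at 1 month (adjusted p = 0.0689), and triangles with an arrow are lower bounds for Gal and Ucn at 12 months, where intact libraries held no count.

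Among injured libraries, Gal was 1.72 ± 0.91 log2 units higher at 12 than at 1 month, which was not called (edgeR, unadjusted p = 0.0796, adjusted p = 0.99992). None of the 12 pairs of a gene and an age contrast was called in injured libraries by edgeR, 0 had an unadjusted p below 0.05, DESeq2 called 0 and limma-voom 1. Of all genes, 0.155%, 0.0844% and 0.0352% were called higher and 0.0704%, 0.0281% and 0.0281% lower (8 against 1, 12 against 1 and 12 against 8 months). The spread between the 3 libraries differed by gene and age, with a coefficient of variation of 0.632% for Gal and 85% for Nts at 8 months, so an age difference of the size of that spread was not detectable here.

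In intact libraries no age difference of Gal was called. The 1-month level rests on replicate 2, the other libraries of that age held 2.32 and 0 CPM, and the 1-month and 8-month libraries overlapped. The log2 difference was −2.48 ± 1.05 at 8 months (edgeR, unadjusted p = 0.0343, adjusted p = 0.264), and at 12 months, with no Gal count, the unadjusted p was 0.00341 and the adjusted p 0.212. None of the 12 pairs was called in intact libraries by edgeR, 2 had an unadjusted p below 0.05, DESeq2 called 1 and limma-voom 0. Of all genes, 0.331%, 0.134% and 2.77% were called higher and 0.591%, 0.113% and 3.92% lower over the same pairs of ages.

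Whether the injury change itself differed with age was tested jointly over the ages. The edgeR p for Gal was 0.00433 (adjusted p = 0.36), and the adjusted p was 1.0 for Npy, 0.941 for Nts and 0.944 for Ucn. edgeR called 0% of all genes, with 1161 genes at an unadjusted p below 0.05, where DESeq2 called 187 and limma-voom 6. Without the 1-month intact replicate 3 library 1 of the 4 genes was called in this test.

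Among the 9 injured libraries, Npy and Nts varied together in log2 CPM (Pearson r = 0.884), whereas Gal with Npy (0.162), Gal with Nts (0.30) and Ucn with any of the others (−0.295 to −0.026) did not. The 9 points share depth, composition and age groups, and these values are descriptions. The genes whose pattern over the same 9 libraries was most like that of Npy were Phyhipl (r = 0.995), Dnajb4 (0.977) and Dcun1d4 (0.974). For Nts they were Gle1 (0.967), Sorcs3 (0.966) and Clrn2 (0.962), for Gal Prag1 (0.949), Pphln1 (0.944) and Nol10 (0.934), and for Ucn Fyn (0.910), Fkbp5 (0.908) and Ralgds (0.908).

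Receptors of the 5 peptides were mostly low in these neurons. Of 17 receptor genes, 8 were tested. Npy1r, the postsynaptic and neuronal Y1 receptor, was the only one called, where 5.11% of all genes were called higher. Its injured libraries held 7.69 ± 7.97 CPM and its intact libraries 0.716 ± 1.15 CPM (SD, n = 9 each), a log2 change of 4.64 ± 1.00 (edgeR, adjusted p = 0.0118). Npy2r, the Y2 autoreceptor, changed by 1.81 (0.263), Galr1 by 1.87 (0.487), Ntsr2 by −1.15 (0.323) and Sort1, which sorts neurotensin and neurotrophins, by 1.00 (0.296), none of them called. Vipr2 (0.43), Adcyap1r1 (−1.05) and Crhr1 (0.19) were not called either, and Galr2, Galr3, Npy4r, Npy5r, Npy6r, Ntsr1, Vipr1, Crhr2 and Crhbp were too low to test. The Npy1r call was lost in 3 of 28 alternatives, limma-voom among them, which called no receptor. The median log2 change of the list was 0.72, against 0.03 over all genes tested.

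Related peptides were measured with a list of 9 genes that holds relatives of the 5 peptides and the neuromedins Nmu and Nms. Of these 3 were tested and all 3 were called higher, where 5.11% of all genes were, with a median log2 change of 5.27. A gene that met the filter only in injured libraries had to differ, so the 3 of 3 is no support in itself. Adcyap1 encodes PACAP, the closest relative of Vip, and averaged 102.9 ± 51.9 CPM after injury against 3.15 ± 4.22 CPM without it (SD, n = 9 each), a log2 change of 5.27 ± 0.73 (edgeR, adjusted p = 0.000494). Crh, the relative of Ucn, changed by 5.38 ± 1.25 (0.0176) and Nms, neuromedin S, by 4.29 ± 0.77 (0.00273). Adcyap1 thus rose in libraries in which Vip gave almost no counts. With limma-voom 1 of the 3 was called, and over 28 alternatives the Crh call was lost in 3 and the Nms call in 2, the value of Nms turning negative (−0.51) in 1.

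The genes that cut, amidate and store peptides were called about as often as genes in general. Of 30 such genes 27 were tested, 1 was called higher, where 5.11% of all genes were, and none lower. The median log2 change was 0.14, and 7 had an unadjusted p below 0.05 (DESeq2 called 2 and limma-voom 4). The called gene was Syt4, a synaptotagmin of dense-core granules, at 246.9 ± 68.2 CPM after injury and 98.8 ± 54.6 CPM without it (SD, n = 9 each; log2 change 1.33 ± 0.22, edgeR adjusted p = 0.00153). The granule protein Vgf changed by 1.53 ± 0.46 and just missed the threshold (0.0579). The convertases Pcsk1 (0.77, 0.214) and Pcsk2 (−0.10, 0.846), the carboxypeptidase Cpe (−0.39, 0.315) and the amidating enzyme Pam (0.31, 0.481) were not called. Scaling to spike-in totals moved the median of all genes to 2.90, and under it the values of Pcsk2, Cpe and Ntsr2 turned positive, so small changes are relative to the bulk of genes.

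Peptides that intact sensory neurons make gave mixed values. Of 14 on the list 9 were tested, with a median log2 change of 0.92, and 0 were called by edgeR, where 5.11% of all genes were called higher. An unadjusted p below 0.05 was found for 5 of the 9, against 2880 of 14212 genes, and DESeq2 and limma-voom called 1 each. Calca, the precursor of calcitonin gene-related peptide, averaged 792 CPM after injury and 858 CPM without it. Its log2 change, averaged over ages on the log scale, was 0.04 (edgeR, adjusted p = 0.98), and the sign changed in 9 of 28 alternatives. Tac1, the substance P precursor, changed by 1.30, Grp by 4.39 (0.0978), Cck by 3.33 (0.123), Cartpt by 2.68, Calcb by −0.37 and Nmb by −0.97 (0.0776).

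Of 24 tested transcription factors and signalling genes known from injured neurons, 9 were called higher, where 5.11% of all genes were. None of them was called lower, and their median log2 change was 1.00. Atf3, the standard marker of an axotomised neuron, changed most (5.76 ± 0.56, edgeR adjusted p = 1.813e-05), followed by the AP-1 member Fosl1 (3.83 ± 0.78, 0.00652), Sox11 (3.11 ± 0.58, 0.00389) and the cytokine signalling inhibitor Socs3 (2.23, 0.0373, a call lost in 11 of 28 alternatives). Of 8 tested cytokine and growth factor genes only Csf1, by which injured neurons signal to microglia, was called (3.74 ± 0.55, 0.000634). On a list of 12 injury-response genes, Atf3, Sox11 and Csf1 among them, 10 were called higher, against the same 5.11% of all genes. The median of that list was 3.37, and Sprr1a (11.39 ± 0.69, 4.735e-08), Ecel1 (9.43), Anxa1 (7.89) and Stmn4 (3.53) were among the 10. Gap43 (1.83, 0.139) and Nefh (−1.06, 0.22) were not called. Many genes of these lists were chosen for their known response to injury.

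**Figure D3:**
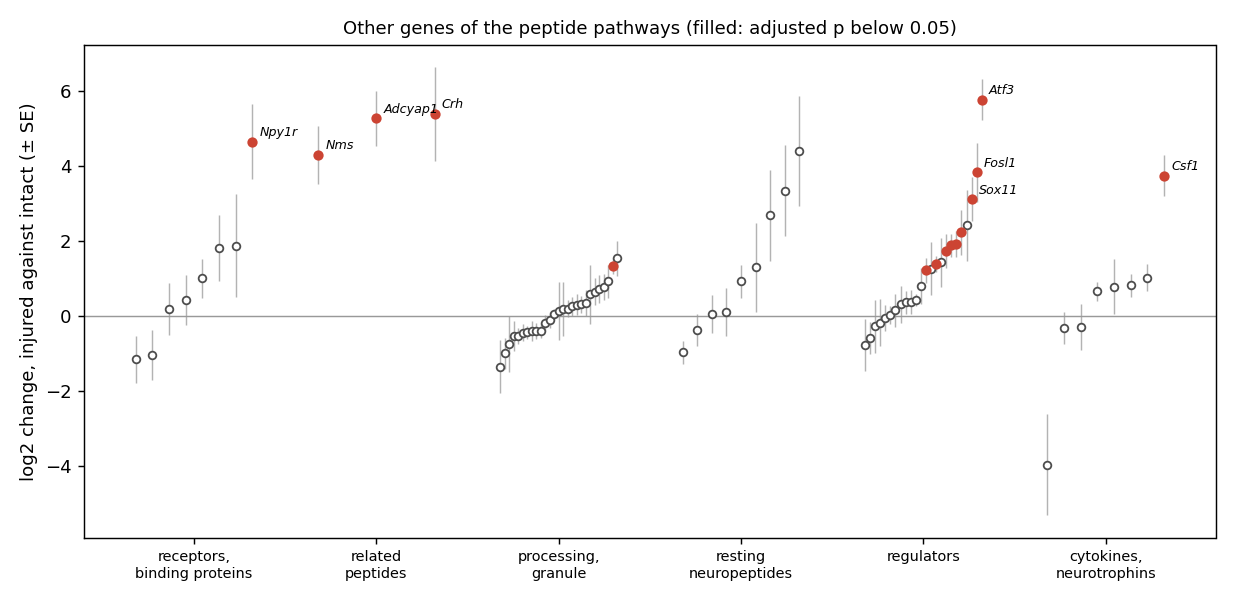
Log2 change with injury, averaged over ages, with its SE, for the tested genes of 6 lists around the 4 peptides. Filled points have an adjusted p below 0.05. Filled are all 3 tested related peptides, 1 of 8 receptors and 1 of 27 processing and granule genes. Of all genes 5.11% were called higher, and the filter could be met by injured libraries alone.

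Summed markers of other cells were compared between the same libraries. Satellite glia markers summed to 148 to 2170 CPM after injury (median 743) and to 104 to 903 CPM without it (median 201), and 1 of 10 tested, Ptprz1, was called higher (2.69, edgeR adjusted p = 0.0199). Sympathetic neurons express Npy and Gal, and their markers summed to 4.29 to 87.1 CPM after injury and to 2.25 to 435 CPM without it, with medians of 44.5 and 18.2 CPM. Of these 10 markers 6 were at 0 in every intact library, among them Dbh, which makes noradrenaline, and 2 in every injured library, with Hand2 at 0 in all 18. Vascular and connective tissue markers summed to medians of 36.1 CPM after injury and 8.17 CPM without it, and 1 of 5 tested, the collagen gene Col1a2, was called higher (3.93, edgeR adjusted p = 0.0254). General neuronal markers ranged from 5782 to 8354 CPM and from 3964 to 8158 CPM in the same order. The part of these cell types in the peptide levels was not tested in the pools.

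The single cells were read for which of them held each gene. Of 69 cells, 55 had at least 100000 counts outside spike-ins and CT010467.1, and CPM in cells are over those counts, a smaller denominator than in the libraries. The 55 cells were 12 intact and 17 injured at 1 month and 8 intact and 18 injured at 1 year. A cell was counted as holding a gene at 10 CPM or more.

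In injured 1-month cells Nts was held by 8 of 17 (47.1%, exact 95% interval 23 to 72.2%), Gal and Npy by 7 each (41.2%, 18.4 to 67.1%) and Ucn by 6 (35.3%, 14.2 to 61.7%). In intact cells of that age 1 of 12 held Gal (8.33%, 0.211 to 38.5%) and none held Npy, Nts or Ucn. By the rule of 3 over the number of cells, a count of 0 there allows a share of up to 25%. Of these 12 cells 2 had under 2000 detected genes, L4L4M (561 genes and no Tubb3 count) and L4L8M (1141 genes). They could hardly show a peptide gene, so the limit is wider than stated. The intact cell L4L9M was left out at 95399 counts. It held 31.4 CPM each of Gal and Npy (3 counts each), 304 CPM of Sprr1a and 335 CPM of Atf3. With no depth filter 11.1% of intact 1-month cells held 2 or more of the genes. Vip was held by no cell of any group. It gave 3 counts in all, in the injured 1-month cell L4R12m (0.611 CPM). All intervals on cells and pooled counts cover counting error only.

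The holders at 1 month were L4 cells. Of 10 injured L4 cells, 7 held Gal, 7 Npy and 7 Nts (70% each, 34.8 to 93.3%), and 6 held Ucn (60%, 26.2 to 87.8%). Of 7 injured L5 cells none held Gal, Npy or Ucn, and L5R6S held Nts (26.6 CPM). Pooled over cells, Npy reached 2264 CPM in L4 (95% Poisson interval 2245 to 2282) and 0.604 CPM in L5 (0.345 to 0.981), and Gal 1954 CPM in L4 and 1.59 CPM in L5. L4R14L gave 43968 of the 49086 Gal counts of L4, and without it pooled Gal in L4 was at 268 CPM (260 to 275). Without L4R12m, which gave the most Npy, pooled Npy in L4 was at 1599 CPM. Injured L5 cells also had a median Atf3 of 71.9 CPM and held no Sprr1a in 7 of 7. The growth-associated gene Gap43 reached 1057 to 2236 CPM in 4 of these 7. It ran from 1096 to 4062 CPM in the 6 L4 cells that held Ucn. Intact 1-month cells reached such levels too, with 2380 CPM of Gap43 in L4L1M and 1374 CPM in L5L18L. Ganglion, cell size and animal cannot be told apart in 17 cells.

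The 4 peptides met in the same cells. Of the 17 injured 1-month cells, 6 held Gal, Npy, Nts and Ucn together, 1 held Npy and Nts, 1 held Gal alone, 1 held Nts alone and 8 held none. All 6 cells with the 4 genes were from L4. At 100 CPM or more in place of 10, 2 of the 17 cells (11.8%) held the 4 genes together, in place of 6 (35.3%). The cell L4R12m held 5004 CPM of Npy, 1675 of Nts, 463.8 of Gal and 133.5 of Ucn, and L4R4M held 5081, 844.9, 306.2 and 150.3 CPM in the same order. L4R14L differed in having more Gal (7323 CPM) than Npy (2270 CPM), with 775.3 CPM of Nts and 54.3 of Ucn.

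The other cells with the 4 genes were dominated by Npy. L4R6L held 6234 CPM of Npy, L4R15M 4662 and L4R9M 937.0, against 81.3, 73.2 and 428.5 CPM of Gal. Per kilobase of exon, Npy made up 70.4 to 95.9% of the sum of the 5 genes in 5 of the 6 cells, and Gal made up 68.5% in L4R14L. The cell with Npy and Nts alone, L4R8M, was mostly Nts (2211 CPM, against 133.5 of Npy). That cell had 119832 counts, 608 detected genes, 1694 CPM of Calca and no Atf3, beside 24369643 spike-in counts. Without cells under 2000 detected genes 6 of 16 injured cells held 2 or more of the genes in place of 7 of 17. The injured L4 cell L4R11M was left out at 8369 counts and 310 detected genes. It held 39 Npy counts, beside 17462829 spike-in counts.

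Across the 17 cells the Spearman correlation was highest for Npy with Ucn (rho = 0.84), Gal with Ucn (0.81) and Npy with Nts (0.79) and lowest for Gal with Nts (0.53). The cells share 1 group and differ in depth, and these values carry no test. Among the 10 L4 cells alone the 6 pairs ranged from 0.38 to 0.84.

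**Figure D4:**
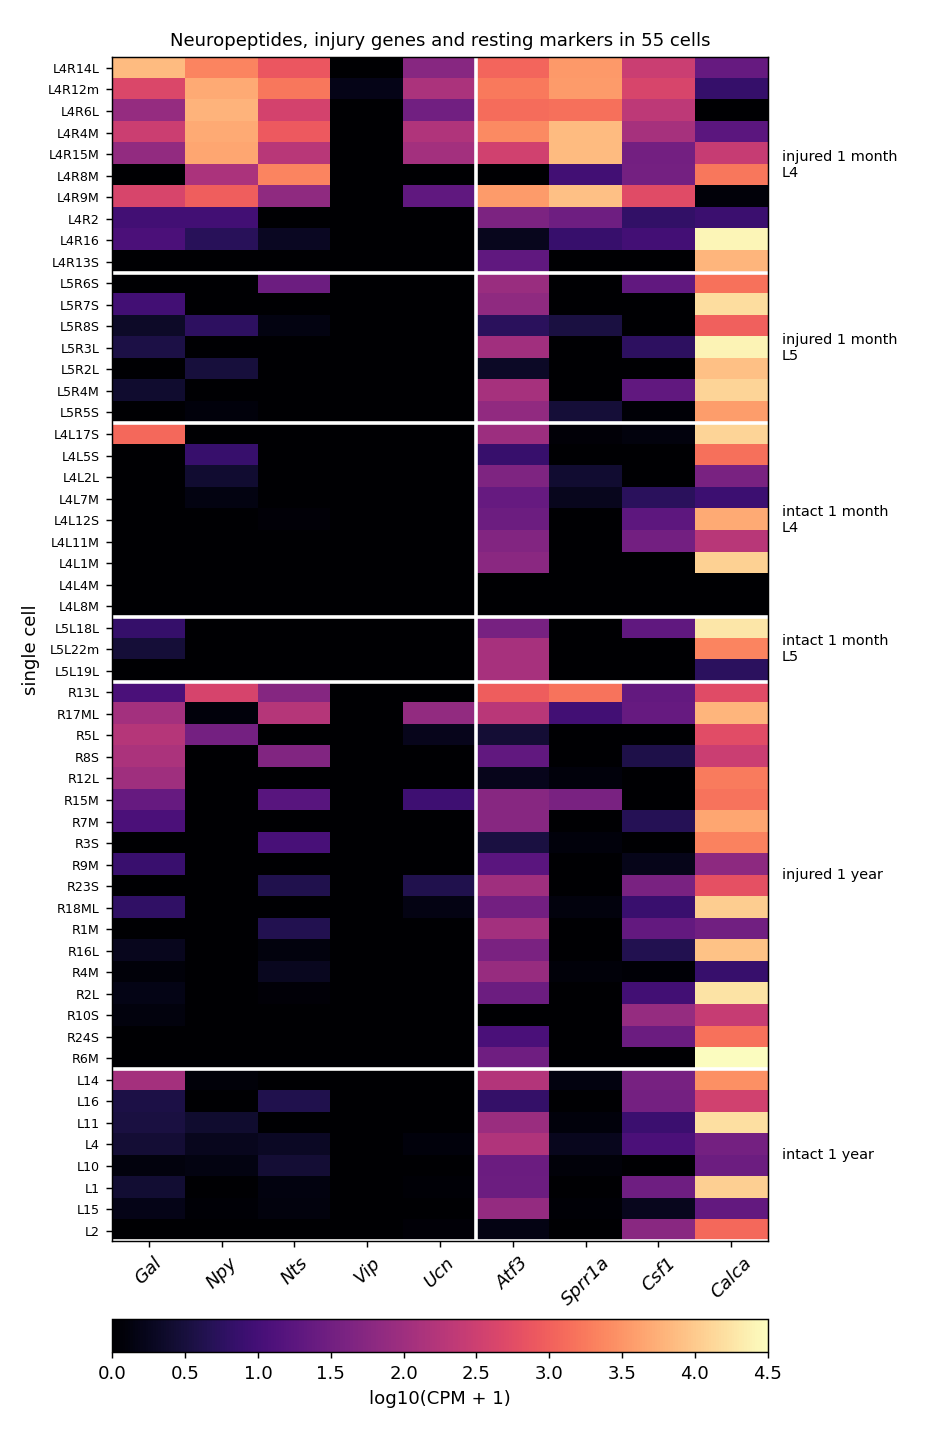
Level of Gal, Npy, Nts, Vip and Ucn and of Atf3, Sprr1a, Csf1 and Calca in the 55 cells, as log10(CPM + 1), with cells in rows by group. Npy, Nts, Gal and Ucn appear together in 6 injured 1-month cells from L4, in which Atf3 and Sprr1a are high and Calca low.

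The size letter in the cell names (S, M and L, which the labels do not explain) went with ganglion. Of injured 1-month cells, S cells were 4 from L5 and 1 from L4, and of these 5 only L5R6S held any of the genes. A further S cell from L4, L4R10S, was left out at 79135 counts. It held 126 CPM of Npy, 25.3 of Gal and 12.6 of Nts, on 10, 2 and 1 counts. Among L4 cells, 5 carried an M, of which 5 held Npy, 5 Nts, 4 Gal and 4 Ucn, and both L cells held all 4 genes. Among L5 cells the 1 with an M and the 2 with an L held none. At 1 year, where names give no ganglion, Npy was held by 2 of 5 L cells and by none of 5 S and 6 M cells, while Gal was held by 1 S, 2 M, 3 L and 1 ML cell.

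The 7 injured 1-month cells with 2 or more of the peptides were set beside the other 10, as a description of cells chosen by their own levels. Median Atf3 was 1295 CPM in the 7 and 54.9 CPM in the 10, and 39.6 CPM in intact cells. Sprr1a was held by 6 of the 7 (median 3610 CPM) and by 1 of the 10, Csf1 by 7 of 7 (median 214 CPM) and 2 of 10, and the Vip relative Adcyap1 by 6 of 7 (median 353 CPM) and 3 of 10. The 6 cells with 4 peptides had the highest Atf3 of the 17, and L4R8M, with Npy and Nts, had none.

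The summed markers of peptidergic nociceptors, with Gal left out, were low in the same 7 cells. Their median was 670 CPM (191 to 1694), against 10190 CPM (141 to 31062) in the other 10. Adcyap1 is on that list and was held more often in the 7 cells, as given above. Calca, from the list, had a median of 17 CPM in the 7 and 7288 CPM in the other 10. The sodium channel Scn10a, which is not on it, had medians of 1.22 and 1186 CPM. The summed list of non-peptidergic nociceptors ran the other way, with a median of 1192 CPM (411 to 2587) in the 7 and 107 CPM (28.4 to 7675) in the 10. Its marker Mrgprd did not, at 0.50 CPM or less in each of the 7. It reached 2454, 2716 and 1272 CPM in L5R5S, L5R6S and L5R8S of the other cells. Of the 10 genes on this list 4 were at 0 in all 7 cells, and 2 in all of the other 10. The whole list of neurofilament-rich neurons summed to medians of 10945 and 10102 CPM. Within it Ntrk3 (72.4 against 1.79 CPM), Ntrk2 (48.9 against 0.90 CPM) and Spp1 (142 against 0 CPM) had higher medians in the 7, Nefh did not (911.5 and 1094 CPM), and Pvalb was at most 53.9 CPM in any of the 7. Across the 17 cells Npy followed Sprr1a (rho = 0.91) and ran against Calca (−0.80), and Ucn followed Atf3 (0.80). Since L5 cells in this group were mostly S cells, these medians also compare ganglia and sizes.

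Receptors and enzymes gave fewer differences. Npy1r was at 10 CPM or more in 2 of the 7 cells and 0 of the 10, and Npy2r in 0 of the 7 and 5 of the 10. Median Pcsk1 was 180 CPM in the 7 and 30.8 CPM in the 10, Vgf 159 and 39.1 CPM, Pcsk2 91.8 and 137 CPM, and Cpe 673 and 580 CPM. Syt4, the granule gene called in the pools, had medians of 688 and 449 CPM and of 101 CPM in intact cells. Crh, called in the pools, reached 10 CPM in no cell and was highest, at 6.00 CPM, in 1 of the 7.

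**Figure D5:**
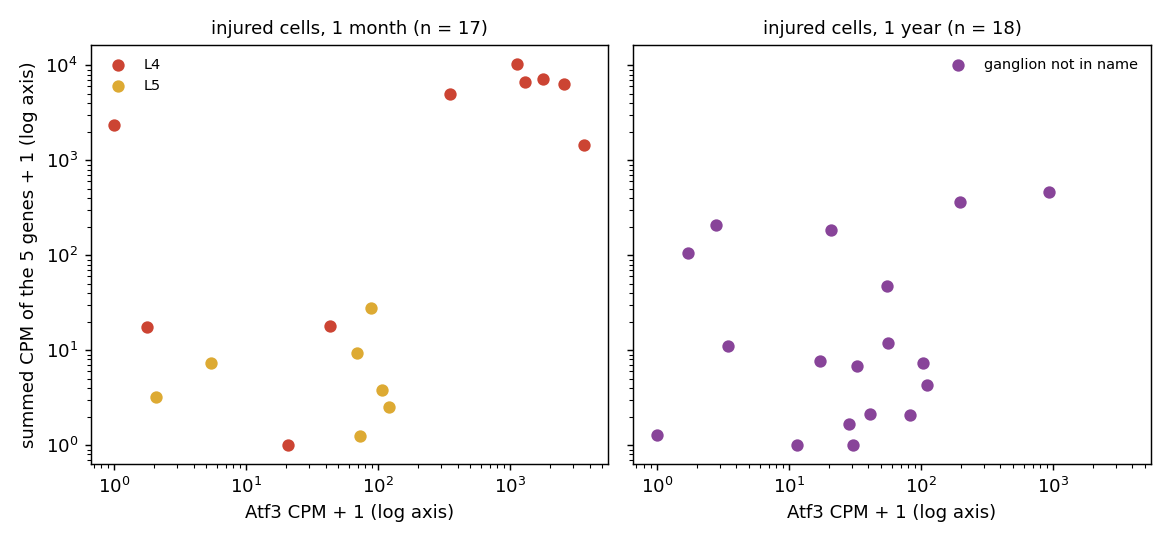
Summed CPM of the 5 peptide genes plus 1 against Atf3 CPM plus 1, both on log axes, in injured cells at 1 month (n = 17, L4 in red and L5 in yellow) and at 1 year (n = 18). At 1 month the 6 cells with 4 peptides lie at high Atf3, from 351.9 to 3634 CPM, and at 1 year only R13L, at 929 CPM, lies as far to the right.

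At 1 year Gal was held by about the same share of injured cells as at 1 month, and Npy, Nts and Ucn by smaller shares with overlapping intervals. The difference between ages was not tested. Spike-in counts had a median of 1698808 in injured 1-month cells and 1.5 in injured 1-year cells, and of 745502.5 and 27 in intact cells. Age therefore cannot be told apart from how the cells were prepared. Gal was held by 7 of 18 (38.9%, exact 95% interval 17.3 to 64.2%), Nts by 5 (27.8%, 9.69 to 53.5%), Npy by 2 (11.1%, 1.38 to 34.7%) and Ucn by 1 (5.56%, 0.141 to 27.3%). Some of the Gal holders were weak, with 2 counts in R13L, 3 counts in R15M and 10.9 CPM in R7M. The holders R5L, R8S and R12L had 393, 125 and 408 CPM of the neuronal marker Tubb3, against 2413 CPM or more in the other holders. Their Atf3 was at 1.82, 19.9 and 0.734 CPM. Of 8 intact cells 1 held Gal (12.5%, 0.316 to 52.7%), and 0 held Npy, Nts or Ucn, which allows a share of up to 37.5%. Pooled over injured cells, Npy was at 1102 CPM at 1 month (95% Poisson interval 1093 to 1111) and at 1.87 CPM at 1 year (1.6 to 2.17). Pooled Gal was at 952 and 44.4 CPM, Nts at 285.3 and 46.7 CPM and Ucn at 25.3 and 18.7 CPM. Single cells carried much of these sums. Without the cell that gave the most counts of each gene, a choice made after seeing the data, Npy was at 692 CPM at 1 month (without L4R12m) and 0.907 CPM at 1 year (without R5L), and Gal at 113 CPM (without L4R14L) and 21.8 CPM (without R17ML). On the same basis Nts was at 139 and 3.85 CPM and Ucn at 13.9 and 0.101 CPM (without L4R12m and R17ML).

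No 1-year cell held the 4 genes together. R13L, with 400.4 CPM of Npy, 53.4 of Nts and 10.7 of Gal, was the 1-year cell most like the 1-month holders, with 929 CPM of Atf3 and 1554 CPM of Sprr1a. R17ML held 176.0 CPM of Nts, 112.5 of Gal and 74.9 of Ucn, and it was the deepest cell (22890735 counts), the only 1-year holder of Ucn and the source of nearly all pooled Ucn. Gal was the leading gene in R5L (172.0 CPM), R8S (135.5 CPM, with 47 of Nts), R12L (103.9 CPM) and R15M (23.2 CPM, with 15.5 of Nts).

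The 1-year cells and the 12-month libraries gave different pictures. In the injured 12-month libraries Npy stood at 684.0 CPM or more, although their denominator includes CT010467.1, while the pooled injured 1-year cells held 1.87 CPM. The injury response differed too, as Sprr1a was held by 2 of 18 injured 1-year cells and median Atf3 was 37 CPM in the 8 with a peptide and 30.6 CPM in the 10 without. Spike-in counts were 94323 to 476923 in the injured 12-month libraries and at most 118 in injured 1-year cells, so preparation differed as well. Whether the cells and the pools came from the same animals or the same time after injury is not given, and the difference was not tested.

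Depth and other cell types moved with some of these groups. Median counts were 1033580 in the 7 injured 1-month cells with 2 or more peptides and 2679138.5 in the other 10. When every cell was thinned to 100000 counts the share with 2 or more stayed at 41.2%. Satellite glia markers summed to a median of 567 CPM (300 to 11024) in the 7, 167 CPM (104 to 498) in the 10 and 297 CPM in intact cells. At 1 year they summed to 6251 CPM (395 to 59094) in the 8 cells with a peptide and 818 CPM (337 to 28056) in the other 10. Vascular and connective tissue markers summed to a median of 197 CPM (9.53 to 2720) in the 7 cells and 9.12 CPM (0 to 72.1) in the 10, and to 142 and 84.7 CPM in the 8 and 10 cells at 1 year. Sympathetic markers summed to medians of 7.95 CPM in the 7 cells and 16.8 CPM in the 10 at 1 month, and to 206 and 99.1 CPM in the 8 and 10 cells at 1 year. Their part in the peptide levels was not tested.

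In cells the genes most like Gal by the mean of the Spearman correlations at both ages were Clic4 (0.785, with 0.954 at 1 month and 0.617 at 1 year), Ndrg2 (0.705) and Timp3 (0.674), out of 8948 genes compared. For Nts they were Calb1, the calcium-binding protein calbindin (0.633), Vapb (0.608) and Rhoc (0.603). They were chosen as the highest of many in 17 and 18 cells and are descriptions.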

How the data were processed

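The authors deposited raw fragment counts per gene. Per the file headers they were made with featureCounts 1.5.2 in paired mode over GENCODE vM16 exons summed by gene name, with ERCC spike-ins, and no option for strand or multiply mapped reads was set. Reads of overlapping and antisense genes therefore cannot be told apart. The deposited table also gives the summed exon length in bases, the other value used, for levels per kilobase. Per the submitters' processing notes, Trim Galore, STAR and the build mm10 were used. The 136 RNA samples of the labels correspond to 87 count columns, and 0 columns were left unused. The 94 methylation samples were not analysed here.

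Low-input libraries were fitted together with edgeR 4.0.16 (R 4.3.3). After removal of spike-ins, filtering with filterByExpr and TMM scaling, 6 group means were fitted by the robust quasi-likelihood method and tested two-sided on 12 residual degrees of freedom. Alternatives were ERCC and RLE scaling, other filters, removal of CT010467.1, its share as a covariate, DESeq2 1.42.0, limma-voom (limma 3.58.1), a replicate block and leaving out each library. The fit was tested on simulated data. Cells had at least 100000 counts, shares have Clopper-Pearson intervals and pooled counts Poisson intervals at 95% (Python 3.11.15, scipy 1.17.1). A fold against 0 counts uses a floor of 3 counts over the group, and the limit on a share of 0 cells is 3 over the number of cells.

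The 5 genes, the lists and the naming rule were chosen with earlier results of these data known. The text names the 5 genes, the called genes of a list with the largest change, up to 4 per list and direction, receptors and processing enzymes of the peptides, and the 3 genes most like each peptide. Likeness is Pearson's r of log2 CPM (prior count 2) over injured libraries, or, in cells, Spearman's rho among genes at 10 CPM or more in at least 20% of injured cells of each age.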

Additional observations from a re-analysis of the deposited data

Results flagged for a closer look

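In 8 of the 15 combinations of a gene and a small group of cells (4 to 10) that were examined, 1 cell stood apart from the rest by Dixon's criterion at the 95% level, which chance exceeds in about 1 of 20 groups. Levels of 0 in most cells of a group make this common. In intact 1-year cells L14 held 117.064 CPM of Gal, and the next cell 2.72845 CPM. Among injured 1-month L4 cells L4R14L held 7322.65 CPM of Gal (next cell 463.842 CPM) and L4R12m 0.61139 CPM of Vip, the only Vip found in a cell. Among intact 1-month L4 cells L4L17S held 1196.83 CPM of Gal, with no other cell above 0, L4L5S held 6.33346 CPM of Npy (next 1.58236 CPM) and L4L12S 0.135788 CPM of Nts. Among injured 1-month L5 cells L5R7S held 8.31087 CPM of Gal (next 2.77076 CPM) and L5R6S 26.6337 CPM of Nts (next 0.399241 CPM). L4L17S was the only intact 1-month cell of at least 100000 counts with Gal above 10 CPM. It also held 12841 CPM of Calca and 93 CPM of Atf3.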

How the results depend on the processing

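The direction of Gal, Npy, Nts and Ucn reversed in 0 of 460 alternative values. With every injured library above every intact one at each age, a reversal was hardly possible, so this is no support. For each gene and contrast 18 of the values are fits with 1 library left out, which for a single age is often a library of another age. The call was the same in 435, lost in 18 and gained in 7. Of the 4 genes, 2 were called at 8 months with the CT010467.1 covariate, 2 with only the 8-month libraries and 0 with limma-voom, and at 12 months 0 with the covariate and 2 with limma-voom. In the joint test of age 1 gene was called with ERCC scaling, without a filter and with DESeq2, and 0 to 1 with a library left out. Among age contrasts in injured libraries 1 was called without a filter and 1 with limma-voom. In intact libraries 5 were called with ERCC scaling, 3 without a filter, 1 with DESeq2 and 0 to 3 with a library left out. Each higher value came without the 1-month intact replicate 3 library. The causes were not tested.

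Counts of all genes called moved more. Averaged over ages 878 became 13493 with ERCC scaling, 32 with the covariate and 1548 with DESeq2, and 561 to 1462 with a library left out. The 33 at 1 month became 50, 15 and 123, and 90 with limma-voom. The 136 at 8 months became 631, 5 and 533, and 3 with limma-voom, and the 425 at 12 months 13675, 6 and 1205. With a library left out the counts ran from 6 to 47 at 1 month, 27 to 236 at 8 months and 74 to 1036 at 12 months, and the shares of all genes called move with them.

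The labels do not say that replicate numbers pair libraries, and the correlations gave no common answer. The correlation of deviations over 14212 genes was 0.0701, 0.1357 and 0.1601 for the 1-month numbers, −0.1856, −0.1759 and 0.1304 for the 8-month numbers and −0.0200, −0.0328 and −0.0055 for the 12-month numbers. Over the 3992 genes with a mean of at least 20 CPM, a choice made after seeing the data, it was 0.196, 0.218 and 0.439 at 1 month, −0.362 to 0.174 at 8 months and −0.0426 to 0.0299 at 12 months. With the replicate number as a block, 4 of the genes were called averaged over ages, 2 at 1 month (Npy, with an adjusted p of 0.0585, was lost), 4 at each later age and 0 in the joint test. Of all genes, the block left 329 calls averaged over ages, then 5 (1 month), 29 (8 months) and 58 (12 months).

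Counting a cell as a holder at any count gave 70.5882% for Gal and for Npy in injured 1-month cells, and 57.1429% and 42.8571% among the L5 cells. In injured 1-year cells it gave 72.2222% for Gal, 55.5556% for Nts, 27.7778% for Ucn and 55.5556% for 2 or more genes. In intact 1-year cells it gave 87.5% for Gal, 62.5% for Npy and for Nts, 37.5% for Ucn and 87.5% for 2 or more. At 100 CPM Nts fell to 5.55556% and Ucn to 0% in injured 1-year cells, Nts to 0% in L5, cells with 2 or more genes to 5.55556% at 1 year, and L4 cells with 4 to 20%. Without R17ML, left out after seeing the data as were cells under 2000 detected genes, no injured 1-year cell held Ucn (0%).

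The number of libraries limits the tests at single ages, and the depth of intact 12-month libraries limits what a count of 0 there can show. Cells show counting error only.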
